A study of Mus musculus with 10 samples.

Results

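The genes described here are 34 lysosome and autophagy genes out of 24640 gene symbols in a table of RNA sequencing counts from mouse brown adipocytes. The 34 were chosen by name for what they encode and not by a rule on their counts, but with earlier results of these data known. They fall into 14 hydrolases and their cofactors, 4 membrane proteins, 7 subunits of the proton pump, 2 transcription factors of the TFEB family and 7 autophagy genes. All 34 had a row in the table and all 34 passed the filter on low counts. The cells came from C57BL/6 mice, with no other allele named, and 10 libraries form 5 groups of 2. The groups are DMSO for 1 day, BML-260 for 1 day, ISO (listed at 1 day), DMSO for 3 days and BML-260 for 3 days. DMSO is the solvent control. BML-260 is a small molecule known as an inhibitor of the phosphatase Dusp22. The labels do not spell out ISO, and they give no dose, no age of the animals and no word on pooling. Nor do they say whether the libraries of a group came from separate cultures, so the p-values cover only how these libraries vary, and that variation may be technical.

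Lysosomes are acidic compartments in which hydrolases digest protein, lipid and sugar chains, and a proton pump of many subunits keeps them acidic. Autophagy brings cytoplasm and organelles to them: a kinase complex around Ulk1 starts the process, membrane-bound proteins of the LC3 and GABARAP families coat the growing vesicle, and receptors such as Sqstm1 (p62) load cargo. The transcription factors Tfeb and Tfe3 can drive many of these genes through a short promoter motif called the CLEAR element, and the kinase complex mTORC1 restrains them at the lysosome. In brown fat, autophagy is known for removing mitochondria and lysosomal acid lipase for releasing fatty acids from stored fat. Transcript counts measure none of these activities.

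Since Tfeb and Tfe3 act through the CLEAR element, the promoters of the members were searched for it. The letters TCACGTGA, which read the same on both strands and contain the shorter E-box motif CACGTG, were found in 5 of the 28 members that have an entry in the RefSeq promoter table (GRCm38.p6; 250 bases before to 50 bases after each start). Of all 32851 promoters in that table, 0.974% hold TCACGTGA and 7.15% hold the E-box. Some genes have several promoters. Counted per gene, 304 of 27025 genes hold TCACGTGA and 2187 the E-box. The E-box alone was found in 4 more members, Ctsl, Lamp1, Glb1 and Gaa. The 10-letter form of the element, which contains both shorter motifs, was found in 0 of the 28 and in 0.326% of all promoters. Ctsb, Atp6v1b2, Atp6v1h, Atp6v1c1, Map1lc3a and Becn1 have no entry. The 5 promoters with TCACGTGA are printed 5′ to 3′ on the strand of the gene, from 150 bases before the start to 20 bases from it, with matches to either motif in capitals.
Ctsa, chr2:164833623-164833792, plus strand: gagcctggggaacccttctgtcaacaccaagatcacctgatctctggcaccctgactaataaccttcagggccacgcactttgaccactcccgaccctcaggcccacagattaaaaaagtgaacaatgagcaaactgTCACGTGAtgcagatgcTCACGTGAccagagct
Ctsd, chr7:142387808-142387977, minus strand: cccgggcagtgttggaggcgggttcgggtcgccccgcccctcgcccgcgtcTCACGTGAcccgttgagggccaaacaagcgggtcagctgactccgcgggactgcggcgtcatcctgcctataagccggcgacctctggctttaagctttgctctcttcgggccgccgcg
Mcoln1, chr8:3500369-3500538, plus strand: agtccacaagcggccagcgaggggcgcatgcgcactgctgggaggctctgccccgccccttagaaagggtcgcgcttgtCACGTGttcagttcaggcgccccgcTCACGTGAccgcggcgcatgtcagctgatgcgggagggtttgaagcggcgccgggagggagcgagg
Atp6v0d1, chr8:105566045-105566214, minus strand: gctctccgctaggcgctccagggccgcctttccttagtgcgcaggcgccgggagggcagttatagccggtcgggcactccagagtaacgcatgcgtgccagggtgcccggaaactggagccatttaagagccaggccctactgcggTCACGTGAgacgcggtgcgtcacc
Atp6v1a, chr16:44139240-44139409, minus strand: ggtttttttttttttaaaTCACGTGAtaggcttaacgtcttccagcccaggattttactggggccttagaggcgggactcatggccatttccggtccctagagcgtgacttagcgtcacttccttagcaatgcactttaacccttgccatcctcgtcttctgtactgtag
The match in Ctsd begins 99 bases before the start, and the match in Atp6v0d1 begins 4 bases before it. A match is a description of letters and not a bound site.

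Library totals ran from 16955918 to 21185675 counts, and values are given as CPM, a gene's counts relative to the normalised size of the library, 1 value per library. A gene is said to have risen or fallen where edgeR's quasi-likelihood test over all 15212 tested genes gave a Benjamini-Hochberg adjusted p under 0.05. Changes are log2 fold changes with the standard error (SE), n = 2 libraries in each group. Of the 10 brown adipocyte markers examined, 9 passed the filter and Dio2 reached at most 2 counts in a library, and Ucp1 ran from 5.10 to 32.8 CPM. The summed CPM of that list was 9608 to 9756 with DMSO and 13028 to 13518 with BML-260 at 1 day, 6645 to 6914 with ISO, and 7226 to 7370 with DMSO and 7575 to 7752 with BML-260 at 3 days. Most of this sum was Fabp4, at 4295 to 10560 CPM, and the 9 markers did not move together: 5 rose and 3 fell with BML-260 at 1 day, and 4 rose and 3 fell at 3 days. Preadipocyte and fibroblast markers, 12 of 12 with a row and led by Col1a1 and Col3a1, moved with both time and treatment. Their sum was 1740 to 1907 with DMSO and 1208 to 1327 with BML-260 at 1 day, 4016 to 4592 with ISO, and 3572 to 3857 with DMSO and 2999 to 3053 with BML-260 at 3 days. Dcn and Lum, markers of that list, were at 0 in at least 1 library. Smooth muscle and pericyte markers, 7 of 7 with a row, summed to 319 to 320 CPM with DMSO and 212 to 223 CPM with BML-260 at 1 day, 285 to 315 CPM with ISO, and 348 to 359 CPM with DMSO and 184 to 209 CPM with BML-260 at 3 days. With BML-260, 5 of the 6 tested fell at each time, and none of that list was at 0 in any library. Osteoclast markers, 4 of 6 with a row, summed to 42.5 to 42.8 CPM with DMSO and 37.3 to 39.5 CPM with BML-260 at 1 day, 51.2 to 52.3 CPM with ISO, and 44.8 to 46.9 CPM with DMSO and 42.7 to 47.7 CPM with BML-260 at 3 days. Ocstamp was at 0 in at least 1 library, and Calcr and Dcstamp were not analysed here. The part of these markers in the results below was not tested. In bulk RNA, fewer cells of a type and less RNA per cell cannot be told apart.

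At the level of transcripts per length, the members spanned a wide range in the DMSO libraries of day 1. Psap, the precursor of the saposins that help hydrolases reach lipids, was highest at 737 CPM per kilobase of annotated exon. The protease Ctsd followed at 353 CPM per kilobase and the membrane glycoprotein Lamp1 at 281 CPM per kilobase. Tfeb was lowest at 3.93 CPM per kilobase, and Tfe3 stood at 6.49 CPM per kilobase. The exon length counts every annotated exon of a gene, so these levels are lower than per transcript.

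**Figure D1:**
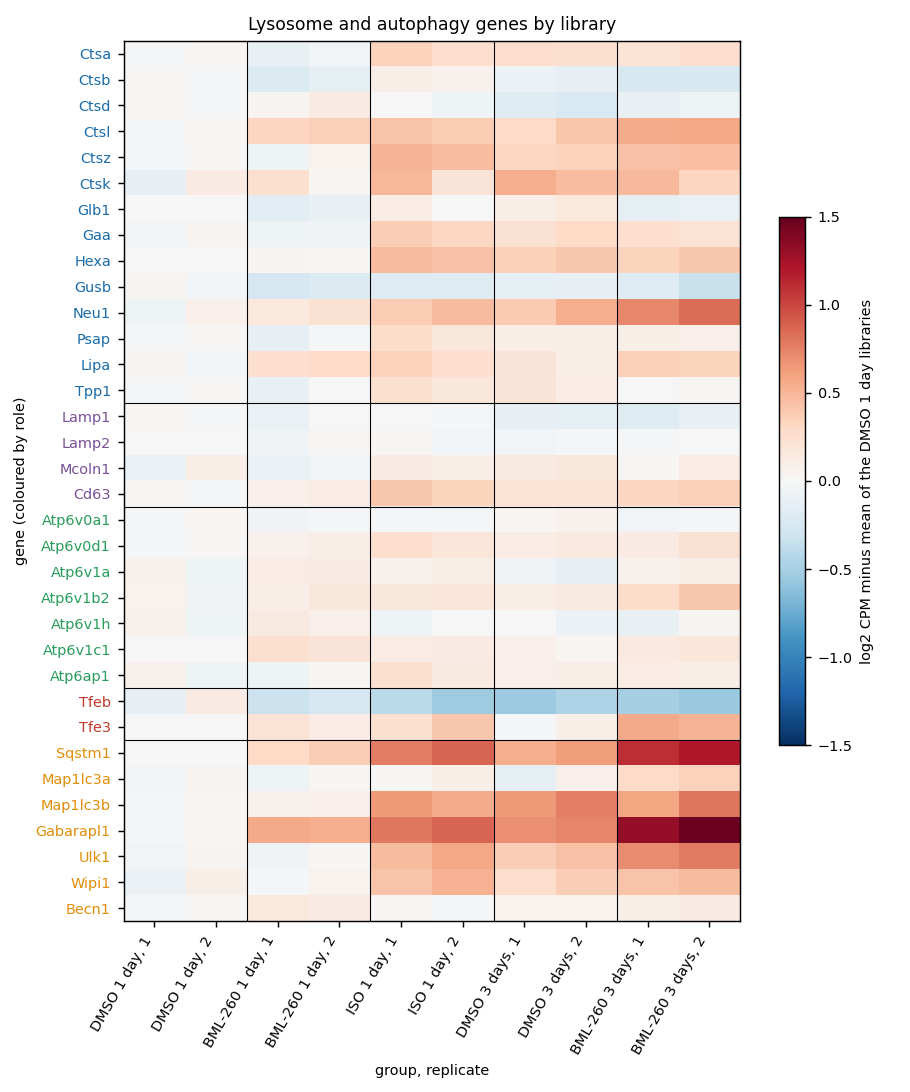
Level of each of the 34 genes in each of the 10 libraries, as log2 CPM minus the mean of the 2 DMSO libraries of day 1, with red above and blue below. Gene names are coloured by role. Sqstm1, Gabarapl1, Ctsl and Lipa were among the genes above the DMSO libraries of day 1 in all 8 other libraries. Tfeb and Gusb were below them in all 8.

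BML-260 for 1 day raised 5 of the 34 genes and lowered 3. The 5 that rose were Gabarapl1 and Sqstm1 of the autophagy genes, the hydrolases Ctsl and Lipa, and the pump subunit Atp6v1c1. The hydrolases Ctsb and Gusb and the transcription factor Tfeb fell. Together these are 23.5% of the members, beside 17.9% of all tested genes, with 9.32% of genes higher and 8.62% lower. Under upper-quartile scaling the members still split 5 and 3, and all genes split into 1216 higher and 1423 lower in place of 1417 and 1311. Without the first BML-260 library of day 1, 5 members rose and 0 fell by edgeR. The median change over the members was 0.02, beside -0.00 over all genes. Taken without sign, the median change was 0.09 over the members and 0.14 over all genes. Gabarapl1 was the single member with a change of at least 0.5 in size.

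Gabarapl1 (chromosome 6, 129533160 to 129542346, plus strand, GRCm38), a GABARAP family protein of the autophagosome coat, stood at 107 and 111 CPM with DMSO and at 162 and 159 CPM with BML-260. Both treated libraries were above both controls, and the change was 0.55 (SE 0.05, adjusted p = 4.5e-08), a 1.47-fold rise. Sqstm1 (chromosome 11, 50199366 to 50210827, minus strand), the cargo receptor, read 533 and 539 CPM with DMSO against 659 and 693 CPM with BML-260. The groups did not overlap, and Sqstm1 rose by 0.33 (SE 0.05, adjusted p = 1.2e-05). The other 5 autophagy genes did not pass. For Ulk1, the kinase that starts autophagy, the libraries overlapped, at 69.9 and 73.8 CPM with DMSO and 69.3 and 72.7 CPM with BML-260. Its 95% interval ran from -0.13 to 0.10, so a change as large as that of Sqstm1 lies outside it.

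Among the hydrolases at 1 day, Ctsl, a cysteine protease, rose from 138 and 143 CPM to 175 and 180.3 CPM, a change of 0.34 (SE 0.05, adjusted p = 1.3e-05). Lipa, the lysosomal acid lipase that releases fatty acids from cholesteryl esters and triglycerides, went from 299.9 and 285 CPM to 348 and 357 CPM. The Lipa groups were apart, with a change of 0.27 (SE 0.05, adjusted p = 0.00016). Ctsb, another cysteine protease, fell from 980.3 and 954 CPM to 836 and 877 CPM, by 0.17 on the log2 scale (adjusted p = 0.0042). Without the first BML-260 library of day 1 the change of Ctsb was -0.14 (adjusted p = 0.076). Gusb, which cleaves glucuronic acid from sugar chains, read 28.3 and 26.6 CPM with DMSO and 23.1 and 23.8 CPM with BML-260, a change of -0.23 (SE 0.08, adjusted p = 0.045). The Gusb groups did not overlap, but its call was lost with DESeq2 (adjusted p = 0.20) and without either library of DMSO or BML-260. Of the pump, Atp6v1c1 rose from 118 and 117 CPM to 138 and 134 CPM, by 0.22 (SE 0.05, adjusted p = 0.0014), and the other 6 subunits did not pass. None of the 4 membrane proteins passed edgeR's test at 1 day. For Lamp1 and Lamp2, the main glycoproteins of the lysosomal membrane, the 95% intervals were -0.13 to 0.05 and -0.11 to 0.07.

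BML-260 for 3 days raised 12 members and lowered 3. The autophagy genes Gabarapl1, Sqstm1, Ulk1 and Map1lc3a rose, with the transcription factor Tfe3, the hydrolases Neu1, Ctsl, Lipa and Ctsz, the pump subunits Atp6v1a and Atp6v1b2, and the membrane protein Cd63. Glb1, Ctsb and Tpp1, all hydrolases, fell. The 15 are 44.1% of the members, beside 35.5% of all genes, of which 17.3% were higher and 18.3% lower. Under upper-quartile scaling 10 members rose and 3 fell, and the split of all genes was 2077 higher and 3313 lower in place of 2625 and 2782. The median change was 0.04 over the members, -0.02 over all genes, 0.34 over the 7 autophagy genes and -0.02 over the 14 hydrolases and cofactors.

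Gabarapl1 reached 272 and 305 CPM with BML-260 at 3 days, against 175 and 181 CPM with DMSO. Both treated libraries were far above both controls, a 1.62-fold rise (log2 change 0.70, SE 0.05, adjusted p = 4e-11). Sqstm1 reached 1156 and 1237 CPM against 779.8 and 827 CPM, again with no overlap, a 1.49-fold rise (log2 change 0.57, SE 0.05, adjusted p = 3.4e-10). Ulk1 read 117 and 123 CPM against 92.9 and 97.2 CPM, which did not overlap, and rose by 0.34 (SE 0.05, adjusted p = 9.7e-06). Map1lc3a and Map1lc3b, the 2 LC3 genes among the members, differed in what they showed at this time. Map1lc3a read 95.1 and 99.6 CPM with BML-260 and 71.4 and 82.2 CPM with DMSO, a rise of 0.34 (SE 0.06, adjusted p = 5.7e-05). Map1lc3b overlapped between the groups, at 109 and 126 CPM with BML-260 and 112 and 122 CPM with DMSO, and its 95% interval of -0.11 to 0.12 leaves out a change as large as that of Map1lc3a. Whether the 2 LC3 genes differ was not tested. Wipi1, which binds the lipid of the forming autophagosome, had a change of 0.14 (adjusted p = 0.062), and Becn1, of the lipid kinase complex, had 0.05 (adjusted p = 0.48).

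Of the transcription factors, Tfe3 (chromosome X, 7762560 to 7775202, plus strand) read 89.1 and 85.4 CPM with BML-260 at 3 days against 58.9 and 63.9 CPM with DMSO. The groups were well apart, and Tfe3 rose 1.42-fold (log2 change 0.51, SE 0.06, adjusted p = 1.5e-07). Tfeb (chromosome 17, 47737030 to 47792419, plus strand) stood at 15.7 and 15 CPM with BML-260 and 15.2 and 16.0 CPM with DMSO. The 2 Tfeb groups overlapped, with a change of -0.02 (adjusted p = 0.90) and a 95% interval of -0.23 to 0.19. At 1 day Tfeb had read 20.3 and 24.2 CPM with DMSO against 17.7 and 18.6 CPM with BML-260, a change of -0.30 (SE 0.09, adjusted p = 0.028). Without the second DMSO library that change was -0.16 (adjusted p = 0.43), and DESeq2 gave an adjusted p of 0.15. The adjusted p of Tfeb was also 0.15 without the first BML-260 library and 0.071 without the second.

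**Figure D2:**
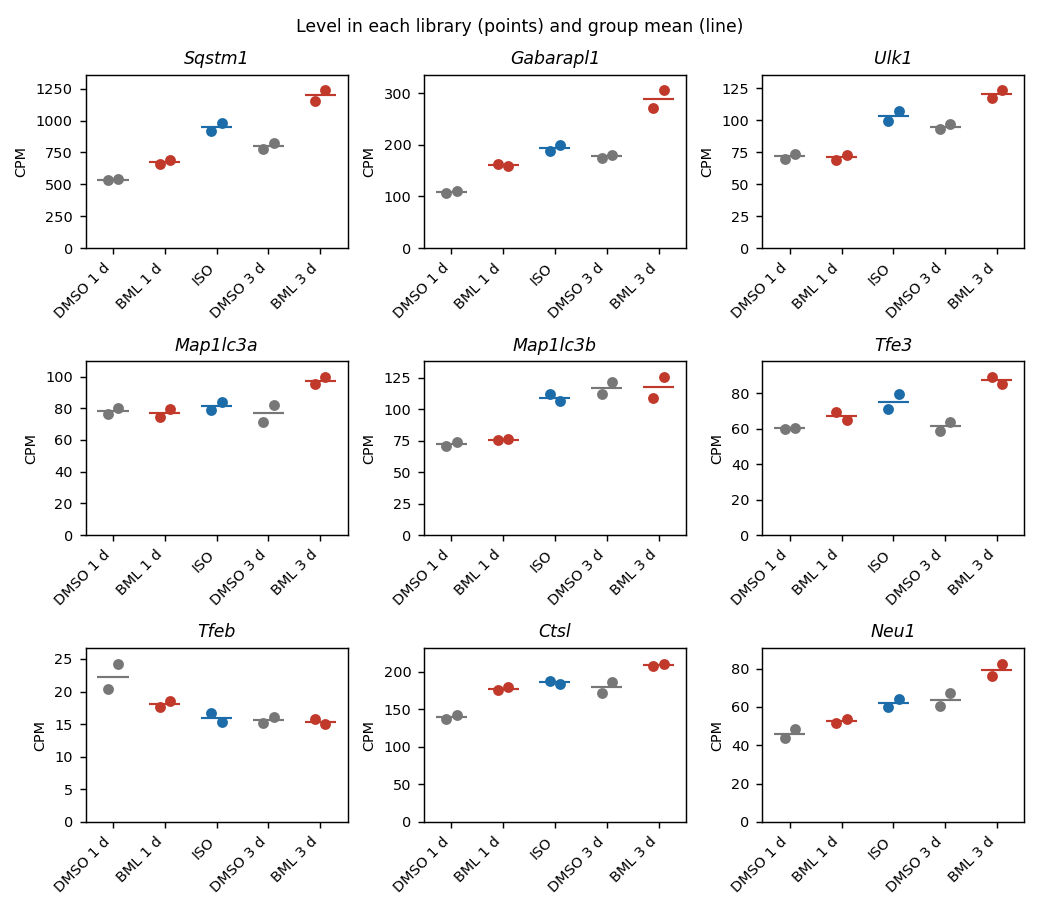
CPM in each library (points) and the group mean (line) for 9 of the genes in the 5 groups, with each vertical axis starting at 0. Gabarapl1 and Sqstm1 were higher with BML-260 than with DMSO at both times, while Ulk1, Map1lc3a and Tfe3 rose with BML-260 at 3 days.

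The hydrolases and cofactors moved in both directions at 3 days, with changes between -0.26 and 0.31. Neu1, the lysosomal sialidase, read 75.9 and 82.3 CPM with BML-260 against 60.3 and 67.0 CPM with DMSO, with no overlap, and rose by 0.31 (SE 0.06, adjusted p = 0.00024). Ctsl, at 207 and 211 CPM against 172 and 187 CPM, rose by 0.22 (adjusted p = 0.00066), and Lipa, at 374 and 368 CPM against 334 and 314 CPM, by 0.19 (adjusted p = 0.0018). Glb1, the lysosomal beta-galactosidase, fell from 48.9 and 51.2 CPM to 41.1 and 42.6 CPM, by 0.26 on the log2 scale (SE 0.06, adjusted p = 0.0018). Without the second DMSO library of day 3 its change was -0.19 (adjusted p = 0.067). Ctsb changed by -0.14 (adjusted p = 0.013), the peptidase Tpp1 by -0.14 (adjusted p = 0.034), and the protease Ctsz by 0.12 (adjusted p = 0.047). The calls of Ctsb and Tpp1 were lost without any single library of the 4, and that of Tpp1 also with DESeq2 (adjusted p = 0.17). The call of Ctsz was lost without 3 of the 4 libraries and with upper-quartile scaling (adjusted p = 0.17). Psap, the most abundant member, was level at 2158 and 2134 CPM against 2162 and 2162 CPM, with a 95% interval of -0.10 to 0.08.

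Of the pump at 3 days, Atp6v1b2 read 165 and 179.9 CPM with BML-260 against 146 and 150.3 CPM with DMSO, a change of 0.22 (adjusted p = 0.0011). Atp6v1a, the catalytic subunit, read 248 and 253 CPM against 228 and 217 CPM, a change of 0.17 (adjusted p = 0.0059). Neither overlapped, yet both calls were lost without the second BML-260 library (adjusted p = 0.057 and 0.059). Cd63, a tetraspanin of late endosomes and lysosomes, read 246 and 253 CPM against 229 and 227 CPM, a change of 0.13 (adjusted p = 0.023), which was lost with upper-quartile scaling (adjusted p = 0.096) and without the second library of either group (adjusted p = 0.054 for DMSO and 0.17 for BML-260). Lamp1 and Lamp2 had 95% intervals of -0.11 to 0.07 and -0.08 to 0.10. Leaving out the second BML-260 library of day 3 left 9 members called, 8 higher and 1 lower.

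The authors' deposited table for 1 day lists 6 of the 34 genes, and all 6 have the sign of the calls above. The authors' deposited table for 3 days lists 15 of them, 13 higher and 2 lower. The counts of 6 and 15 were not set beside the share of all genes listed in each table. Whether the members were listed more often than other genes was therefore not tested. Of these 15, 14 were called here with the same sign, and the other was Ctsd, with a log2 fold change of 0.12 in the authors' deposited table and 0.11 (adjusted p = 0.054) by edgeR.

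**Figure D3:**
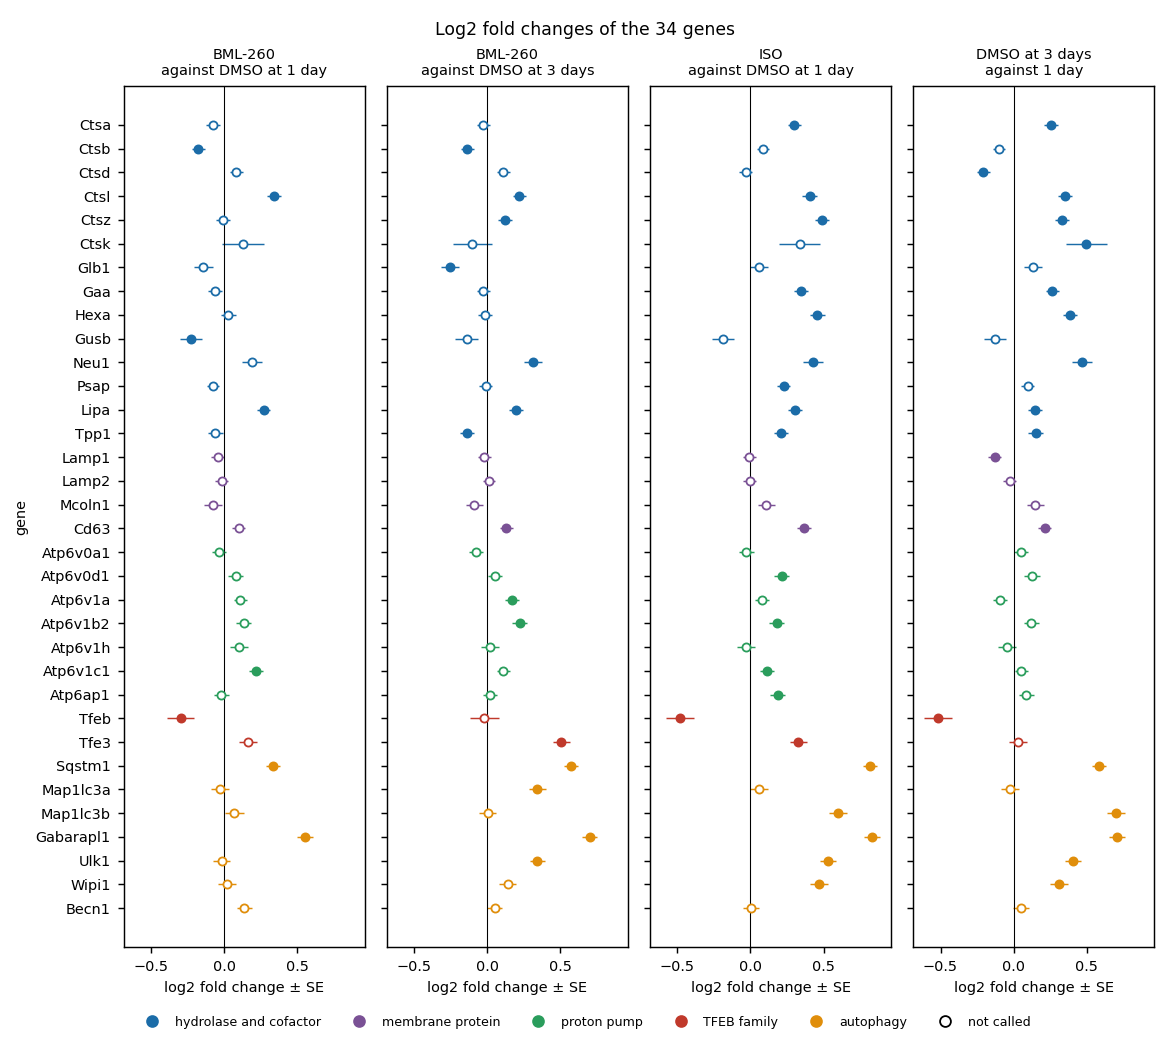
Log2 fold change with its SE for the 34 genes, ordered by role, in 4 comparisons: the effect of BML-260 at each time, ISO against the DMSO libraries of day 1, and the later against the earlier DMSO libraries. Filled points passed an adjusted p of 0.05 and open points did not. The number of filled points is 8, 15, 21 and 18 in that order.

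The effect of BML-260 at 3 days was set against its effect at 1 day by a test of the difference itself. In that test 4 members were called and all 4 had the more positive effect at 3 days: Map1lc3a, Ulk1, Tfe3 and Sqstm1. They are 11.8% of the members, beside 8.44% of all genes, of which 3.93% were higher and 4.51% lower. The split of all genes, 598 higher and 686 lower, was 470 and 807 under upper-quartile scaling and 926 and 622 with only the 4 groups compared in the fit. The difference was 0.37 for Map1lc3a (SE 0.09, adjusted p = 0.0075), 0.36 for Ulk1 (SE 0.08, adjusted p = 0.0042), 0.34 for Tfe3 (SE 0.08, adjusted p = 0.011) and 0.24 for Sqstm1 (SE 0.07, adjusted p = 0.025). The effect on Gabarapl1 differed by 0.14 (adjusted p = 0.25). Ulk1 alone of the 4 was called in all alternatives. Leaving out the second DMSO library of day 1 left 2 members called, and leaving out the first DMSO library of day 3 left 1. Leaving out single libraries moved Map1lc3a to adjusted p values of up to 0.055, Tfe3 up to 0.059 and Sqstm1 up to 0.14. No hydrolase, membrane protein or pump subunit passed edgeR's test of the difference. Over the 2 times, Ctsl, Lipa, Sqstm1 and Gabarapl1 rose at both, Ctsb fell at both, and 16 members passed at neither. This cross-count over the 2 times was not made over all genes. Lamp2 and the pump subunits Atp6v0a1 and Atp6v1h passed in none of the 7 comparisons by edgeR: over all libraries Atp6v0a1 stayed between 87.4 and 94.9 CPM and Atp6v1h between 57.7 and 68.4 CPM.

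With ISO, 20 of the 34 genes stood higher than in the DMSO libraries of day 1, and Tfeb alone was lower. These 21 are 61.8% of the members, beside 41.7% of all genes, with 21.4% higher and 20.3% lower. By role, 9 of 14 hydrolases and cofactors, 1 of 4 membrane proteins, 4 of 7 pump subunits, Tfe3 and 5 of 7 autophagy genes rose. The median change was 0.21 over the members and -0.00 over all genes. Under upper-quartile scaling the split of the members was 19 higher and 2 lower, and that of all genes 2588 and 3831 in place of 3253 and 3086.

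Gabarapl1 read 189 and 199.9 CPM with ISO, above both DMSO libraries of day 1 by a change of 0.83 (SE 0.05, adjusted p = 3e-12), a 1.78-fold rise. Sqstm1, at 915 and 978 CPM, rose by 0.82 (SE 0.05, adjusted p = 4.7e-13). The other autophagy genes that rose were Map1lc3b by 0.60 (SE 0.06), Ulk1 by 0.53 (SE 0.05) and Wipi1 by 0.47 (SE 0.06), while Map1lc3a had 0.06 (adjusted p = 0.49). Map1lc3b lay at 112 and 106 CPM with ISO against 70.6 and 73.7 CPM with DMSO, with no overlap. Among the hydrolases the changes of those called ran from 0.21 for Tpp1 to 0.49 for Ctsz, which stood at 239 and 229 CPM against 165 and 169 CPM. Hexa, the alpha subunit of beta-hexosaminidase, rose by 0.46 (SE 0.05), Neu1 by 0.43 (SE 0.07), Ctsl by 0.40 (SE 0.05) and Gaa, which digests glycogen, by 0.34 (SE 0.05). Ctsd had -0.03 and Ctsb 0.08, and neither passed. The pump subunits that passed were Atp6v0d1 with 0.21, Atp6ap1 with 0.19, Atp6v1b2 with 0.18 and Atp6v1c1 with 0.11. The calls of Atp6ap1 and Atp6v1b2 were lost without the second DMSO library of day 1 (changes of 0.12 and 0.13). That of Atp6ap1 was also lost without the first ISO library (change 0.13). The call of Atp6v1c1 was lost with DESeq2 (adjusted p = 0.093) and with upper-quartile scaling (adjusted p = 0.29). It was also lost with no filter, with only the groups compared, and with each of the 10 libraries left out in turn. Tfe3 rose by 0.33 (SE 0.06, adjusted p = 8.3e-05), and Tfeb, at 16.7 and 15.3 CPM, fell by 0.48 on the log2 scale (SE 0.10, adjusted p = 2e-04).

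Within the solvent control, 15 members were higher at 3 days than at 1 day and 3 were lower, 52.9% of them, beside 34.9% of all genes (18.1% higher, 16.8% lower). Under upper-quartile scaling 15 members rose and 4 fell, and all genes split into 2409 higher and 2844 lower in place of 2753 and 2560. The comparison and the ISO comparison share the DMSO libraries of day 1, so their values are set side by side without a test. Sqstm1 had 0.82 with ISO and 0.58 with time, and Gabarapl1 0.83 and 0.70. Map1lc3b had 0.60 with ISO and 0.70 with time, and Neu1 0.43 and 0.47. Tfe3 had 0.33 and 0.03, Psap 0.23 and 0.10, Ctsb 0.08 and -0.10, and Ctsd -0.03 and -0.21. The gap between these pairs of values is the comparison of ISO with DMSO at 3 days, which is given next. Tfeb fell with both, by 0.48 and 0.52 on the log2 scale. Ctsd and Lamp1 fell with time, Ctsd from 847 and 811 CPM to 731 and 705.98 CPM (change -0.21, adjusted p = 0.00065) and Lamp1 by 0.13 on the log2 scale (adjusted p = 0.026). Ctsk, a collagen-digesting protease that is scarce here at 6.35 to 10.1 CPM, rose with time by 0.50 (SE 0.14, adjusted p = 0.0062). The calls of Ctsk, Lamp1, Lipa and Tpp1 with time did not hold in all alternatives. The fibroblast marker sums given above rose over the same days and with ISO.

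Against the DMSO libraries of day 3, ISO left 9 members higher and 0 lower, 26.5% of the members beside 19.9% of all genes (10.6% higher, 9.24% lower). They were Tfe3, Sqstm1, Ctsb, Ctsd, Atp6v1a, Lipa, Ctsz, Cd63 and Psap. Tfe3 had the largest change of the 9, 0.30 (SE 0.06, adjusted p = 0.00074), followed by Sqstm1 with 0.24 (SE 0.05, adjusted p = 0.00072). Map1lc3b (-0.10), Neu1 (-0.04) and Hexa (0.07), which were higher with ISO than with DMSO at 1 day, did not pass here. Of the members that rose with ISO against DMSO at 1 day, 6 were also higher than at 3 days, while 14 were called against 1 day only. Fewer calls against 3 days were also seen over all genes, with 41.7% called against 1 day and 19.9% against 3 days. The same cross-count was not made over all genes. Upper-quartile scaling split all genes into 1234 higher and 1817 lower in place of 1620 and 1406. The calls against day 3 were sensitive to single libraries: 5 members were left without the first ISO library, and 5 without the second DMSO library of day 3. Ctsb and Sqstm1 were called in every alternative.

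Set directly against ISO at the listed time of 1 day, BML-260 had 19 members lower and 2 higher, 61.8% of the members beside 44.4% of all genes (21.6% higher, 22.8% lower). Under upper-quartile scaling the members split into 17 lower and 4 higher, and all genes into 2987 lower and 3821 higher in place of 3464 and 3288. Ulk1 was lower by a change of -0.54 (SE 0.05, adjusted p = 7.1e-09), Map1lc3b by -0.53 (SE 0.06, adjusted p = 7.6e-08) and Sqstm1 by -0.49 (SE 0.05, adjusted p = 4e-09). Hydrolases followed the same side, with 9 lower of 14, Ctsz by -0.49, Hexa by -0.43 and Gaa by -0.40. Ctsl (-0.06) and Lipa (-0.03), which rose with both agents, did not pass in the direct comparison. The 2 members higher with BML-260 were Ctsd (0.12, adjusted p = 0.037) and Becn1 (0.14, adjusted p = 0.041), and neither call held in all alternatives. Of the 19 lower calls 14 held in all alternatives. Those of Glb1, Mcoln1, Atp6v0d1 and Tfe3 were lost with DESeq2 among others, and that of Neu1 without a single library. Doses are not given, so the sizes are those of the treatments as applied.

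**Figure D4:**
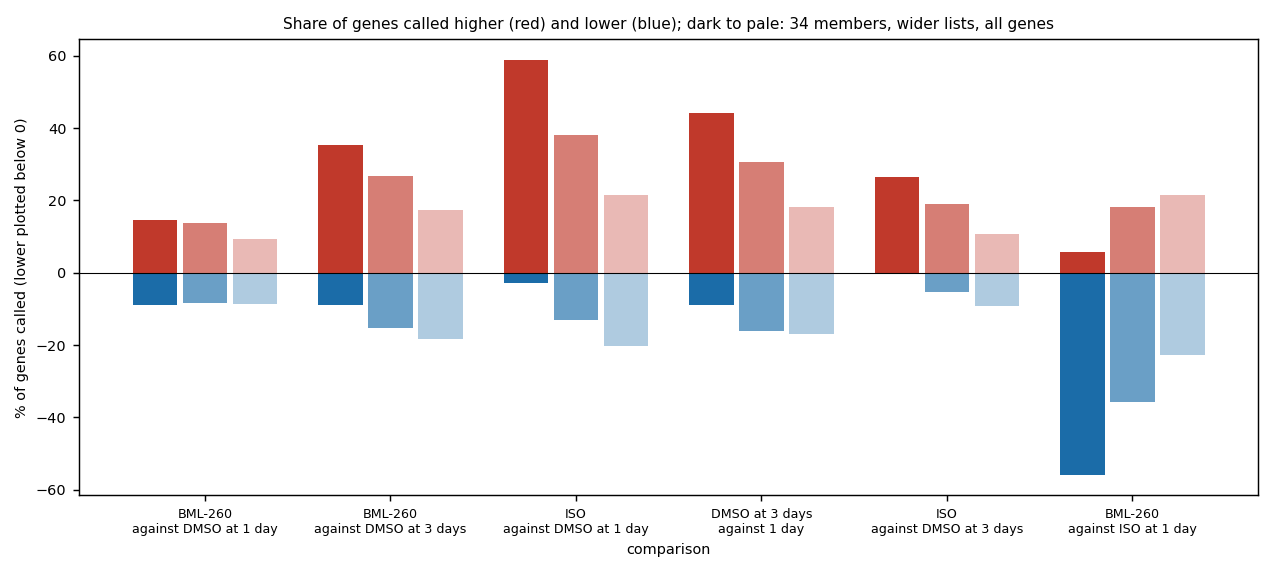
Share of genes called higher (red, above 0) and lower (blue, below 0) among the 34 genes, the genes of the wider lists and all tested genes, from dark to pale, in 6 comparisons. The share of the 34 genes called higher is largest with ISO against DMSO at 1 day, and their share called lower is largest for BML-260 against ISO.

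The calls were counted for members with and without TCACGTGA in the promoter. Of the 5 members printed above, none was called with BML-260 at 1 day by edgeR, 1 rose at 3 days (Atp6v1a) and 2 rose with ISO (Ctsa and Atp6v0d1). Of the 23 members with an entry and no TCACGTGA, 4 rose and 2 fell at 1 day, 9 rose and 2 fell at 3 days, and 16 rose and 1 fell with ISO. With time in DMSO 1 rose and 1 fell of the 5, and 14 rose and 2 fell of the 23. Sqstm1, Gabarapl1, Ulk1, Tfe3 and Neu1 are among the 23. Of the 221 tested genes whose promoter holds TCACGTGA, 7.24% rose and 8.14% fell at 1 day, 15.8% and 16.7% at 3 days, 30.8% and 14.5% with ISO, and 24.4% and 11.3% with time. For the 9675 tested genes with an entry and without it, these shares were 10.3% and 9.50%, 18.9% and 19.7%, 23.8% and 21.8%, and 20.3% and 17.8%.

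The same functions were followed in wider lists of other genes, 139 named, 134 with a row and 131 tested. With BML-260 at 1 day 18 of the 131 rose and 11 fell, which is 13.7% and 8.4%, beside 9.32% and 8.62% of all genes. At 3 days 35 rose and 20 fell, which is 26.7% and 15.3%, beside 17.3% and 18.3% of all genes. Of 49 other hydrolases and lysosomal proteins, 3 rose and 9 fell at 1 day, with a median change of -0.04, and 5 rose and 16 fell at 3 days, with a median of -0.07. Npc1, which exports cholesterol from lysosomes, rose by 0.31 (SE 0.05, adjusted p = 0.00017) and 0.45 (SE 0.05, adjusted p = 7.8e-08), while its partner Npc2 fell by 0.17 and 0.19 on the log2 scale. The sorting receptor Sort1 fell at 3 days by 0.52 on the log2 scale (SE 0.05, adjusted p = 1.9e-09). Of 12 other pump subunits 4 rose and 0 fell at each time in edgeR's test, led by Atp6v0e (0.24) at 1 day and Atp6v1g1 (0.41) at 3 days.

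Of 48 other autophagy genes, 5 rose and 1 fell at 1 day, with a median change of 0.06, and 17 rose and 4 fell at 3 days, with a median of 0.10. In the test of the difference between the times 3 of them had the more positive effect at 3 days and 4 the more negative, and the median difference was 0.01. Epg5, which tethers autophagosomes to lysosomes, rose by 0.27 at 1 day and by 0.55 at 3 days (adjusted p = 6e-08), and Atg13, a partner of Ulk1, rose by 0.38 at 3 days. Stx17, the fusion protein of the autophagosome, fell at 3 days by 0.35 on the log2 scale, and its effect differed between the times by -0.40 (adjusted p = 0.017). Of 22 other TFEB family and mTORC1 genes 6 rose and 1 fell at 1 day and 9 rose and 0 fell at 3 days. Rraga, a GTPase that brings mTORC1 to the lysosome, rose by 0.22 and then 0.49 (adjusted p = 1.7e-07), and its difference between the times was 0.27 (adjusted p = 0.040). Sesn3, an inhibitor of mTORC1, fell at 1 day by 0.42 on the log2 scale. With ISO 50 of the 131 rose and 17 fell (38.2% and 13.0%, beside 21.4% and 20.3% of all genes), among them Npc1 by 0.89, Flcn by 0.60, Tsc1 by 0.51 and Atg13 by 0.49 upwards, and Zkscan3, a repressor of autophagy genes, downwards by a change of -0.51. Atg4d (-0.40) and Acp2 (-0.39) were also among those that fell with ISO. With time in DMSO 40 rose and 21 fell (30.5% and 16.0%, beside 18.1% and 16.8% of all genes). Atg14 at 0.67, Npc1 at 0.68 and Flcn at 0.54 were among those that rose. Atg4d (-0.49), Lamtor1 (-0.39), Zkscan3 (-0.32) and Atp6v0a2 (-0.31) were among those that fell. Of the 12 other pump subunits 0 rose and 5 fell with time.

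Macrophages, which are rich in lysosomes, were checked for by 12 markers, of which 9 had a row and 3 passed the filter; Adgre1, Mrc1 and Ptprc were not analysed here. Their summed level was 7.45 to 8.0 CPM with DMSO and 8.05 to 9.34 CPM with BML-260 at 1 day, 9.98 to 11.4 CPM with ISO, and 7.22 to 8.09 CPM with DMSO and 8.81 to 10.4 CPM with BML-260 at 3 days. Most of the sum was Cd68, itself a lysosomal membrane protein, and Cd14. Lyz2, Tyrobp, Itgam, Cd163 and Mpeg1 were at 0 in at least 1 library, and Csf1r reached at most 9 counts. The sum was above that of DMSO with ISO and with BML-260 at each time, but the tested markers did not move together. Of the 3 tested, 1 rose and 1 fell with ISO against DMSO at 1 day. None was called with BML-260 at 1 day, and 1 rose at 3 days. With time in DMSO the ranges of the sum overlapped, and none of the 3 was called. The part of these markers in the results was not tested.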

How the data were processed

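The 34 genes and the wider lists were chosen with earlier results of these data known. All 34 genes are named. From each wider list, up to 2 genes that rose and 2 that fell with the smallest p in each comparison were picked. The wider genes named in the text are only some of these picks. None is named for ISO against DMSO at 3 days or for BML-260 against ISO. The submitters' processing notes name TopHat2 2.1.1, bcl2fastq 2.17.1.14, DESeq2 and bedtools. They also name mm10 and mm9 without saying which was used for what. How reads were assigned to genes, with which annotation and whether by strand, was not given in the sources used here. Raw counts per gene symbol were deposited by the authors, and 26 rows whose symbol had become a date hold 0.242% to 0.264% of counts. The authors' deposited lists give a log2 fold change and p-values per gene, per the file headers.

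Counts were tested with edgeR 4.0.16 in R 4.3.3: TMM scaling, filterByExpr (minimum count 10, minimum total 15), and quasi-likelihood tests in which each of the 5 groups had its own mean, leaving 5 residual degrees of freedom among 10 libraries. P-values were adjusted by Benjamini and Hochberg's method over 15212 genes. The SE was taken from the F statistic, as the size of the log2 fold change over the root of F, and the 95% intervals use it. The common dispersion was 0.00115. The fit was tested on simulated data. Groups come from the titles, treatment and time labels, and 7 comparisons were made. Between the 2 libraries of a group the log2 CPM correlated at 0.9943 to 0.9951 across genes, and the chi-square per gene was 1.92 to 3.09. In no group were the counts of the 2 libraries identical. These values cannot tell whether the 2 came from separate cultures, and libraries of different groups were not compared in this way. Exon lengths and overlaps come from GENCODE M21 (GRCm38), where all 34 genes matched. In 13 of the 34, exons overlap those of another gene, among them Sqstm1 with Mrnip, Gabarapl1 with 1700101I11Rik and Map1lc3b with Zcchc14 on the opposite strand, whose reads cannot be told apart without strand. Ctsd with Gm49369, Ctsl with Gm49230 and Glb1 with Tmppe overlap on the same strand, where strand would not separate them. Promoter sequences come from RefSeq (GRCm38.p6). Alternatives were DESeq2 1.42.0, RLE and upper-quartile scaling, no filter, a filter of 50 counts in 2 libraries, only the groups compared, a replicate block, and each library left out.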

Additional observations from a re-analysis of the deposited data

Results flagged for a closer look

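In 4 of the 34 genes the effect of BML-260 differed between 3 days and 1 day by a test of the difference itself (edgeR, adjusted over all tested genes), each with the more positive effect at 3 days. These are 11.8% of the 34 genes, beside 8.44% of all tested genes. Only the call of Ulk1 held in all alternatives, and those of Tfe3, Sqstm1 and Map1lc3a were each lost without some single libraries. The difference was 0.34 for Tfe3, 0.24 for Sqstm1, 0.37 for Map1lc3a and 0.36 for Ulk1 on the log2 scale. For Ulk1, Map1lc3a and Tfe3 the effect at 1 day had not passed the test, and for Sqstm1 both effects had. Groups of 2 libraries are too small for a check of single outlying libraries.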

How the results depend on the processing

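No called value of the 34 genes changed sign in any of the 7 alternatives or with any of the 10 libraries left out; 99 of 4046 values of these genes changed sign without passing the test on either side. The number of the 34 genes called stayed within 1.5 times its main value in the 7 alternatives. DESeq2 moved the number of all genes called to 1746 (BML-260 against DMSO at 1 day), 721 (difference between the effects of BML-260) and 1864 (ISO against DMSO at 3 days). With single libraries left out, the members called ran from 5 to 9 for BML-260 at 1 day, from 9 to 17 at 3 days, from 1 to 4 for the difference, from 19 to 21 for ISO against DMSO at 1 day, from 5 to 10 against 3 days, from 17 to 21 for BML-260 against ISO and from 14 to 19 for time in DMSO. The genes called ran, in the same order, from 1235 to 2843, from 3811 to 5493, from 659 to 1371, from 4603 to 6368, from 1469 to 3073, from 5221 to 6780 and from 3803 to 5403. A lone library left in a group was assumed to vary like the other groups. Calls that held in all alternatives numbered 5 of 8 at 1 day, 8 of 15 at 3 days and 1 of 4 for the difference. With ISO they numbered 18 of 21 against DMSO at 1 day and 2 of 9 against 3 days. For BML-260 against ISO they were 14 of 21, and for time in DMSO 14 of 18. The calls that held were not counted over all genes. Deviations of libraries with the same replicate number correlated at -0.034 to 0.058 over 10 pairs of groups, so no strong deviation shared by number was seen. The labels do not say whether the numbers pair the libraries, and these correlations cannot settle it. With a replicate block 9, 17, 4, 21, 11, 21 and 19 members were called in the order above. Depth limits Ctsk and Tfeb most, the scarcest of the 34 genes.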
